A study of Rattus norvegicus with 6 samples.

Results

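The 8 genes described here are markers of Schwann cells, the glia of peripheral nerves, and of the myelin they make: Sox10, Erbb3, Cdh19, S100b, Mbp, Pmp22, Mag and Prx. They were chosen by name as the rows of the deposited expression table that carry these symbols, and all 8 were among its 17833 genes. All 8 also passed the filter on low expression, a mean of at least 0.1 FPKM (counted fragments scaled by gene length and library total) over the 6 libraries, which left 15150 genes for testing. Bulk RNA-seq had been performed on the pulmonary veins (PVs) of wild-type Sprague-Dawley (SD) rats, 3 with bilateral pulmonary vein banding (BPVB group) and 3 sham-operated (sham group), to characterise the vein that narrows after banding. Newborn pups of both groups were cooled on ice for anaesthesia and had the chest opened at postnatal day 1, and the constriction was placed in the BPVB group only. PV tissue of the upper right lung lobe was taken at postnatal day 21. Library totals, recovered from the FPKM, were between 23439506 and 29725808 fragments, and were lower in each sham library than in each BPVB library. The libraries came from whole vein tissue, so that fewer cells of a type and less RNA per cell cannot be told apart.

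Schwann cells arise from the neural crest, and the transcription factor Sox10 is needed throughout their lineage. Axons present neuregulin 1 to the ErbB2 and ErbB3 receptors of Schwann cells, and cells that wrap a large axon go on to make compact myelin, which holds Mbp and Pmp22. The autonomic nerves that reach the PV and its sleeve of atrial muscle run mostly as thin unmyelinated fibres within non-myelinating Schwann cells, alongside some myelinated ones.

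In the banded veins, 5 of the 8 genes were lower, 1 was higher and 2 did not pass the test. Mbp, Sox10, Cdh19, Pmp22 and Mag fell, with sham means of 1.21 to 4.20 times the BPVB means in FPKM, and S100b rose to 1.74 times its sham mean, whereas Erbb3 and Prx did not pass (limma on log2(FPKM + 0.5), Benjamini-Hochberg adjusted p under 0.05 over all tested genes). Over all tested genes, 31.5% passed this test, 14.3% lower and 17.2% higher. The median log2 fold change, BPVB over sham, was -0.38 over the 8 genes and 0.02 over all tested genes. In 6 of the 8 genes the groups did not overlap, as was the case in 45.6% of all tested genes. With the further threshold of an absolute log2 fold change above 1, 0 of the 8 genes and 3.27% of all tested genes were differentially expressed genes (DEGs). Mag passed it under 5 alternatives, among them without BPVB replicate 1 (log2 fold change -1.01) and without sham replicate 3 (-1.15), and the 496 DEGs over all genes became 325 with a pseudocount of 1, 901 with 0.1 and 1055 with limma-voom on recovered fragments. The count of lower genes was 3 without sham replicate 1, where Sox10 and Mag lost the call.

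**Figure D1:**
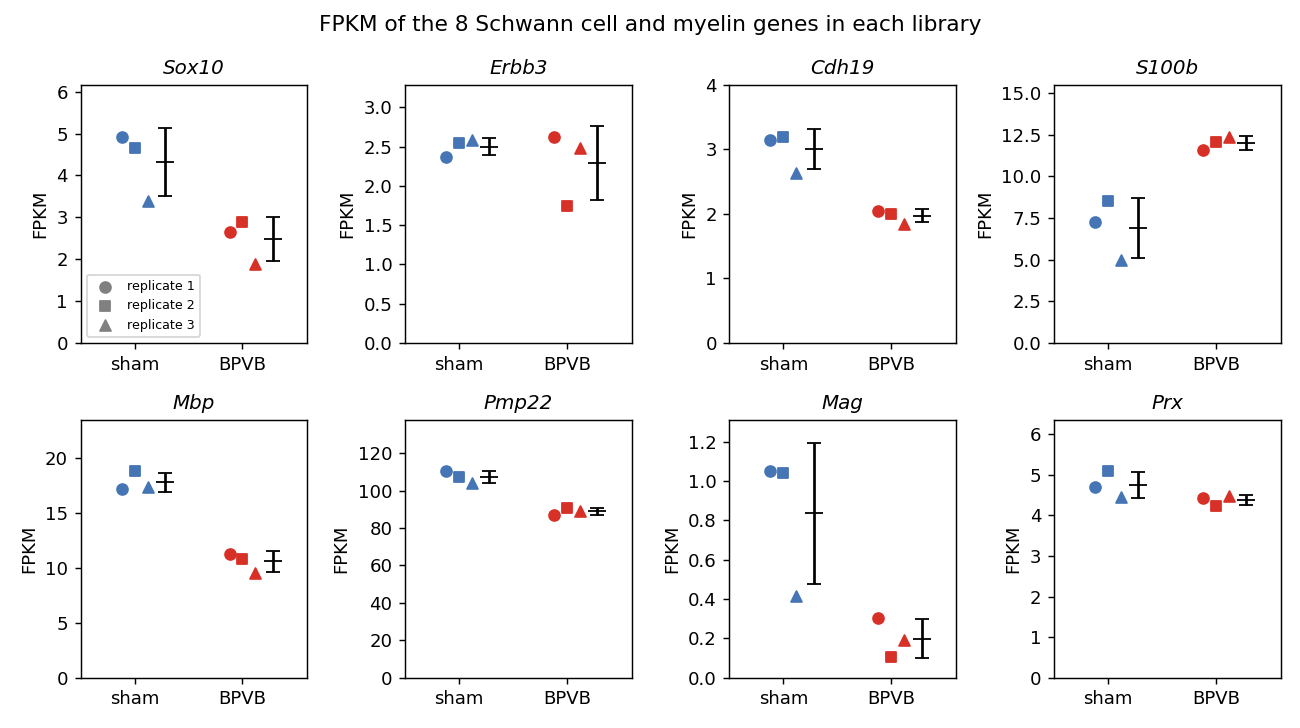
FPKM (vertical axis, starting at 0) of the 8 Schwann cell and myelin genes in the 3 sham (blue) and 3 BPVB (red) libraries, with a different marker shape for each replicate and black bars for the mean ± SD of each group. The BPVB points lie below all sham points for Sox10, Cdh19, Mbp, Pmp22 and Mag and above them for S100b, and the groups overlap for Erbb3 and Prx.

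The promoters of 3 of these genes are shown because they fell (Mag, Cdh19) or rose (S100b) and held a short motif of the kind that Sox family factors, Sox10 included, recognise. The sequences are the 250 bases before the start of each gene, in RefSeq on the rat assembly GRCr8, written 5′ to 3′ along the gene's strand. Capitals mark matches to the motifs ACAAAG or ACAAT on either strand, so that CTTTGT and ATTGT are the same motifs read on the opposite strand. The motifs do not overlap each other in these windows.
Mag (chr1:95291045-95291294, minus strand): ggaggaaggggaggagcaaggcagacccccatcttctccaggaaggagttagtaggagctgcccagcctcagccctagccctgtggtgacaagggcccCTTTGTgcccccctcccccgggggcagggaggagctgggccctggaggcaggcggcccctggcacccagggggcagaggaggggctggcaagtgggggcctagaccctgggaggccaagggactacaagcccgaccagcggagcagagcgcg
Cdh19 (chr13:28533754-28534003, minus strand): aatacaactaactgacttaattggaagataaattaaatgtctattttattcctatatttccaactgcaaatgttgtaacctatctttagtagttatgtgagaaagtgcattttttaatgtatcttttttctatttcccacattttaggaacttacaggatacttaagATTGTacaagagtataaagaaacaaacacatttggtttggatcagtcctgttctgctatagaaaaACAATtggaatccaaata
S100b (chr20:12381082-12381331, minus strand): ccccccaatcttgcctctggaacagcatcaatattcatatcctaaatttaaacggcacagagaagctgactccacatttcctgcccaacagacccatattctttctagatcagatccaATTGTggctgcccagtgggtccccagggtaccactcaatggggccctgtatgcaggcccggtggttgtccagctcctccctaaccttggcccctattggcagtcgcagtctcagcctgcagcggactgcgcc
Mag held 1 ACAAAG match, 152 bases upstream of its start. Cdh19 held 2 ACAAT matches, 83 and 18 bases upstream, and S100b held 1, 132 bases upstream. Of 33469 rat promoters of the same length, 16.3% held ACAAAG and 30% held ACAAT, so that such matches are common. Prx and Pmp22, the other genes searched, held neither motif. The promoter of Mbp was available but was not searched, and Sox10 and Erbb3 had no promoter entry. A match describes the letters of the window only, and binding was not measured.

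Sox10 (NCBI Gene 29361) encodes the transcription factor that marks the whole Schwann cell lineage. Its FPKM was 2.65, 2.90 and 1.89 in BPVB replicates 1 to 3 and 4.93, 4.65 and 3.38 in sham replicates 1 to 3. Every BPVB library was below every sham library, and replicate 3 was the lowest of both groups. The mean was 2.48 ± 0.53 with banding and 4.32 ± 0.82 after sham surgery (SD, n = 3 each), a ratio of 1.74, sham over BPVB. The log2 fold change was -0.70 (standard error 0.17, 95% interval -1.08 to -0.31, adjusted p = 0.014, limma). Behind these values were 170 to 355 fragments a library. The call rested on a narrow margin, since it was lost without sham replicate 1 (log2 fold change -0.60, adjusted p = 0.0527).

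Cdh19 (NCBI Gene 360835) encodes a cadherin of glial precursors and Schwann cells. Its FPKM was 2.04, 2.0 and 1.85 with banding and 3.15, 3.20 and 2.64 after sham surgery, with no overlap. The mean was 1.97 ± 0.099 with banding and 3.00 ± 0.31 after sham surgery (SD, n = 3 each). Cdh19 fell by 0.50 on the log2 scale (standard error 0.11, 95% interval -0.75 to -0.25, adjusted p = 0.0087, limma). As for Sox10, replicate 3 was the lowest library of each group.

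Erbb3 (NCBI Gene 29496) encodes the neuregulin receptor of Schwann cells, which epithelial cells also use. Its FPKM was 2.63, 1.75 and 2.48 with banding and 2.37, 2.55 and 2.59 after sham surgery. The groups overlapped, with BPVB replicate 1 the highest and BPVB replicate 2 the lowest of the 6. The means were 2.29 ± 0.47 and 2.50 ± 0.11 (SD, n = 3 each), and the log2 fold change of -0.12 had a 95% interval from -0.44 to 0.20 (adjusted p = 0.56, limma). A fall of the size of that of Mbp or Sox10 lay outside this interval. Without BPVB replicate 2 the log2 fold change was 0.03. Markers of lung epithelium stood higher in the same BPVB libraries. Of 9 such markers, 8 were higher and 1, Hopx, was lower. Their summed level was 624.9 to 684.1 FPKM in the BPVB group, of which Hopx held 56.4 to 61.0. In the sham group it was 130.7 to 136.1, of which Hopx held 68.6 to 73.2. Among them, the log2 fold change was 3.40 for Sftpc, which encodes a surfactant protein, 2.42 for Epcam and 1.59 for Cdh1, and the part of epithelium in the level of Erbb3 was not tested.

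S100b (NCBI Gene 25742) encodes a calcium-binding protein of glia that fat cells and cartilage cells also make. Its FPKM was 11.6, 12.1 and 12.4 with banding and 7.26, 8.54 and 4.97 after sham surgery. Each BPVB library was above each sham library, and the sham libraries were the more spread. The mean was 12.0 ± 0.42 with banding and 6.92 ± 1.8 after sham surgery (SD, n = 3 each). S100b rose by 0.78 on the log2 scale (standard error 0.16, 95% interval 0.42 to 1.14, adjusted p = 0.0053, limma). It was the only gene of the 8 that was higher, under these settings and all 16 alternatives tried. Among 6 adipocyte markers, 4 were higher in the BPVB group, Adipoq (log2 fold change 1.53) and Plin1 (1.83) among them, and the other two, Lep and Fabp4, did not pass. The summed level of the 6, most of it Fabp4, was 1326.9 to 1372.1 FPKM in the BPVB group and 1310.5 to 1323.1 in the sham group. Of the 5 cartilage markers in the table, 3 were tested and 1, Acan, was higher. Their summed level was 0.997 to 1.45 and 0.812 to 0.972 FPKM in the BPVB and sham groups, with Col2a1 and Col9a1 under the filter on low expression. The part of these cell types in the level of S100b was not tested. In the reference annotation S100b also overlaps Dip2a, whose log2 fold change was -0.27 (adjusted p = 0.056, limma), and the sources used here do not give the strand setting of the counting. In the same annotation Mbp, Pmp22 and Mag overlap long non-coding RNA genes, and Prx and Cdh19 overlap pseudogenes. None of these is in the expression table, and their part in the values was not tested.

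Mbp (NCBI Gene 24547) encodes myelin basic protein, which holds the cytoplasmic faces of compact myelin together. Its FPKM was 11.3, 10.8 and 9.49 with banding and 17.2, 18.8 and 17.4 after sham surgery. The groups lay far apart relative to their spread, with means of 10.6 ± 0.96 and 17.8 ± 0.87 (SD, n = 3 each). Mbp fell by 0.73 on the log2 scale (standard error 0.076, 95% interval -0.90 to -0.56, adjusted p = 1.2e-04, limma), with 833 to 1303 fragments a library.

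Pmp22 (NCBI Gene 24660) encodes a membrane protein of compact peripheral myelin that fibroblasts and other cells also make. At 86.9, 90.8 and 89.0 FPKM with banding and 110.4, 107.2 and 104.0 after sham surgery, it was the most abundant of the 8 genes per length. The groups did not overlap, and the difference was small beside that of Mbp. The means were 88.9 ± 1.9 and 107.2 ± 3.2 (SD, n = 3 each), and Pmp22 fell by 0.27 on the log2 scale (standard error 0.034, 95% interval -0.35 to -0.19, adjusted p = 4.1e-04, limma).

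Mag (NCBI Gene 29409) encodes myelin-associated glycoprotein, an adhesion molecule on the innermost myelin layer that faces the axon. It was the least abundant of the 8 genes, with 0.301, 0.103 and 0.193 FPKM with banding and 1.05, 1.04 and 0.418 after sham surgery. Sham replicate 3 was well under the other sham libraries, yet above every BPVB library. These values rested on 21, 7 and 15 fragments with banding and 65, 64 and 26 without. The sham mean of 0.836 ± 0.36 was 4.20 times the BPVB mean of 0.199 ± 0.099 (SD, n = 3 each), whereas the log2 fold change was -0.90 (standard error 0.23, 95% interval -1.42 to -0.39, adjusted p = 0.015, limma). The pseudocount of 0.5 shrinks the fold of so low a gene, and the value became -1.61 under a pseudocount of 0.1 and -2.03 under limma-voom on the recovered fragments. The call was lost without BPVB replicate 2 (adjusted p = 0.0515), without sham replicate 1 (0.0572) and without sham replicate 2 (0.057).

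Prx (NCBI Gene 78960) encodes periaxin, which links the outer Schwann cell membrane to the basal lamina through dystroglycan and which lung capillary endothelium also expresses. Its FPKM was 4.42, 4.23 and 4.48 with banding and 4.69, 5.09 and 4.45 after sham surgery. The groups overlapped through sham replicate 3. The means were 4.38 ± 0.13 and 4.74 ± 0.32 (SD, n = 3 each), and the log2 fold change of -0.10 had a 95% interval from -0.30 to 0.09 (adjusted p = 0.41, limma). A change as large as that of Mbp or Sox10 lay outside this interval. Of 6 capillary endothelial markers in the table, 1 (Ednrb, log2 fold change 0.32) was higher and 3 were lower, among them Cd300lg (-2.72) and Gpihbp1 (-0.39). Their summed level was 124.9 to 130.2 FPKM in the BPVB group and 153.6 to 158.0 in the sham group, and their part in the level of Prx was not tested.

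The level of each gene was also set against that of Sox10 in the same library. The log2 ratio of Mbp to Sox10 was 2.10, 1.90 and 2.33 with banding and 1.80, 2.02 and 2.37 after sham surgery. These ranges overlapped, as did those of Cdh19 and Erbb3. The ratio of S100b to Sox10 was 2.13, 2.06 and 2.72 with banding and 0.56, 0.88 and 0.56 after sham surgery, a difference of 1.64 in the mean log2 ratio. Pmp22 and Prx also stood higher relative to Sox10 in all BPVB libraries, by 0.54 and 0.69 in the mean log2 ratio. Mag stood lower in all of them, by -1.28, with a ratio as low as -4.82 in BPVB replicate 2, where it had 7 fragments. These ratios are a description of 3 libraries a group, with no test, and they share the error of Sox10.

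**Figure D2:**
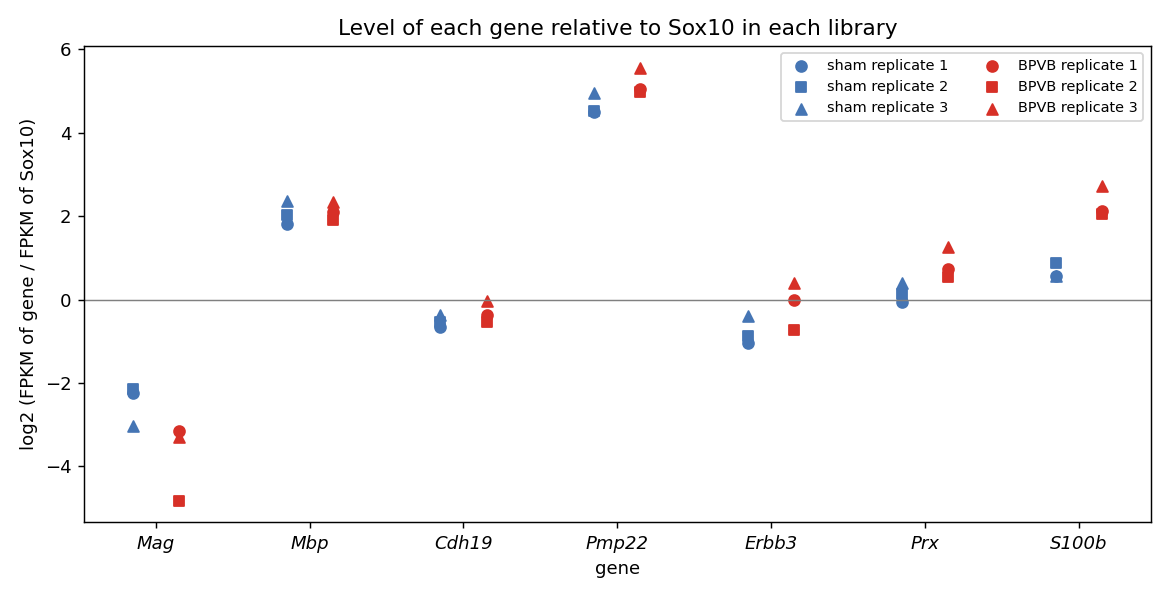
Log2 ratio of the FPKM of each gene to that of Sox10 in the same library (vertical axis, log scale), for 7 of the 8 genes, with sham libraries in blue and BPVB libraries in red and a marker shape for each replicate. Sham and BPVB points overlap for Mbp, Cdh19 and Erbb3, BPVB points lie higher for S100b, Pmp22 and Prx, and they lie lower for Mag.

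Among 13 other genes of myelin and myelinating Schwann cells, 11 passed the filter, of which 7 were lower, 1 was higher and 3 did not pass the test, with a median log2 fold change of -0.65. The falls were those of Ugt8, which makes the galactolipids of myelin (log2 fold change -0.92), of the dystroglycan-complex gene Drp2 (-0.83), of Ncmap (-0.82), of Gldn, which assembles the node of Ranvier (-0.68), of the sphingolipid hydroxylase Fa2h (-0.66), of the raft protein Mal (-0.65) and of Dhh, the hedgehog signal of Schwann cells (-0.32). Fa2h lost its call without BPVB replicates 1, 2 or 3 or sham replicate 2 (adjusted p 0.0579 to 0.0965), and Dhh without BPVB replicate 3 or sham replicates 1 or 3 (0.0545 to 0.0681). The gene that rose was Cldn19, a claudin of the myelin sheath and of some epithelia, from 1.01 ± 0.34 to 2.39 ± 0.11 FPKM (SD, n = 3; log2 fold change 0.96, adjusted p = 0.0020, limma). Cnp (log2 fold change 0.10), Pllp (-0.26) and Nfasc (-0.37) did not pass, although Nfasc, with means of 0.049 and 0.217 FPKM in the BPVB and sham groups, was called lower with limma-voom on the recovered fragments (log2 fold change -2.01, adjusted p = 0.00933). The groups did not overlap in 10 of the 11 genes. For this list and those that follow, the shares over all tested genes were 14.3% lower, 17.2% higher and 45.6% without overlap.

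**Figure D3:**
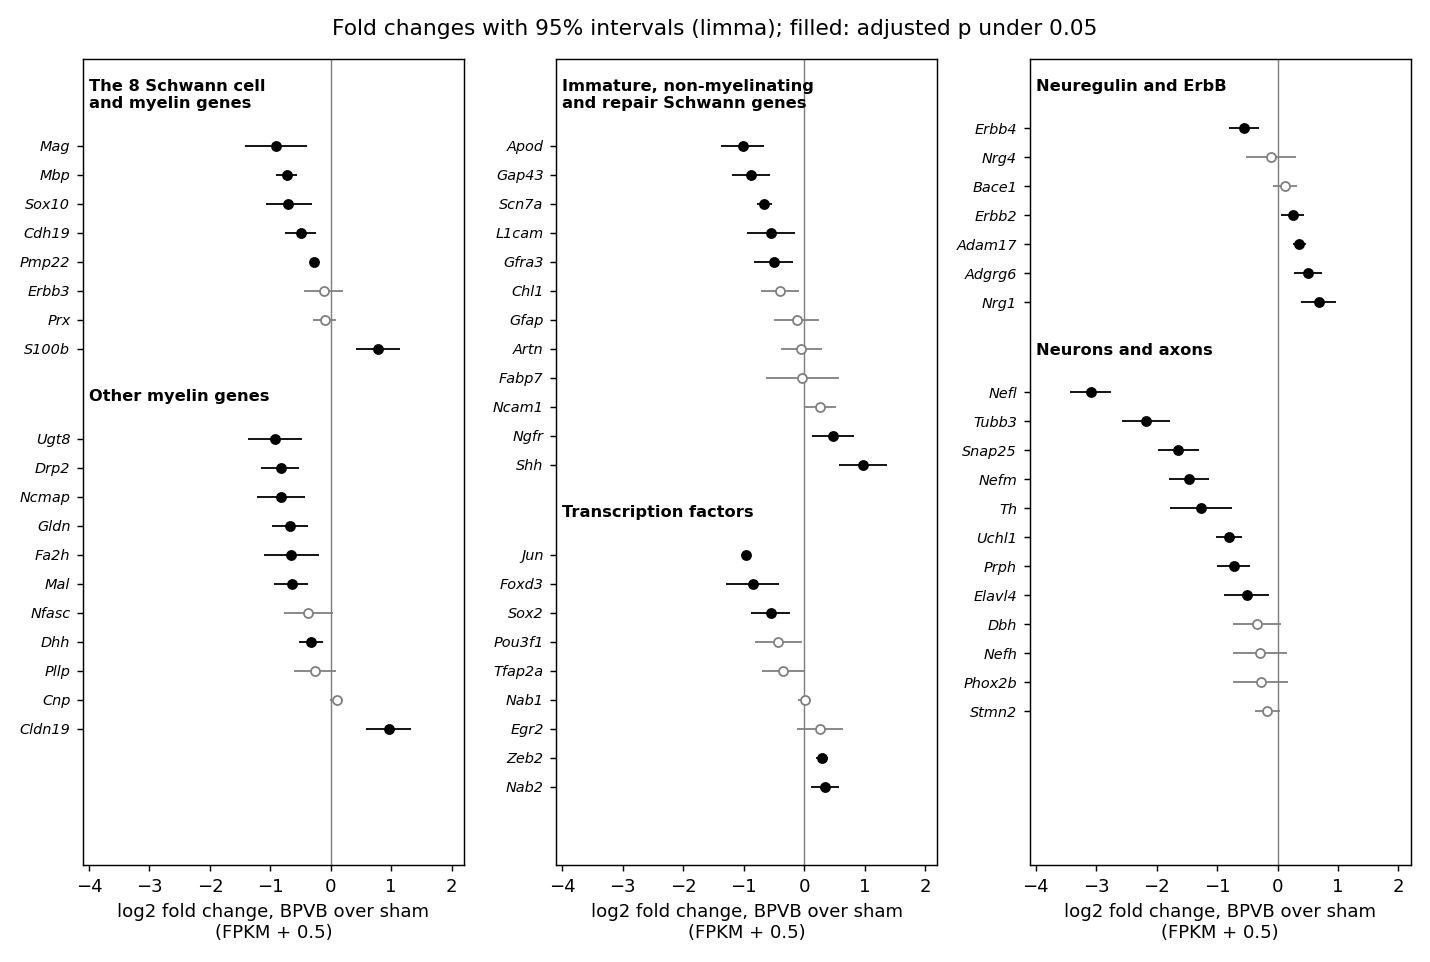
Log2 fold change, BPVB over sham, on log2(FPKM + 0.5) (horizontal axis) with 95% intervals from limma for every tested gene of 6 lists, filled where the adjusted p was under 0.05. Most filled points of the 8 genes, the other myelin genes and the neuronal genes lie left of 0, those of the neuregulin list lie mostly right of it, and the fitted value of Shh, which had 0 or 1 fragments in the sham libraries, depends on the pseudocount.

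Of 10 transcription factors of the Schwann lineage, 9 were tested, and 3 were lower, 2 were higher and 4 did not pass, with a median of -0.35. Jun, which drives the repair state of injured Schwann cells and acts in most other cell types, was 85.8 ± 2.7 FPKM in the BPVB group and 169.1 ± 1.9 in the sham group (SD, n = 3; log2 fold change -0.97, adjusted p = 1.3e-07, limma). The neural crest factor Foxd3 (log2 fold change -0.85) and the progenitor factor Sox2 (-0.55) were also lower. Sox2 lost its call without BPVB replicate 2 or sham replicates 2 or 3 (adjusted p 0.0508 to 0.0606) and with limma-voom (log2 fold change -1.30, adjusted p = 0.0696). Zeb2 (0.30) and Nab2 (0.34), a partner of the Egr factors, were higher, and Nab2 lost its call without BPVB replicates 1 or 2 or sham replicates 1 or 3 (adjusted p 0.0557 to 0.105) and with quantile normalization (0.0503). Egr2, the master regulator of myelination, did not pass (log2 fold change 0.26, adjusted p = 0.28, limma), with 1.62, 1.10 and 1.99 FPKM with banding and 1.19, 1.32 and 1.09 after sham surgery. Pou3f1, which acts ahead of Egr2 in promyelinating cells, had a log2 fold change of -0.43 that did not pass either (adjusted p = 0.089, limma).

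Of 13 genes of immature, non-myelinating and repair Schwann cells, 12 were tested, and 5 were lower, 2 were higher and 5 did not pass, with a median of -0.26. The lower ones were Apod, a lipid carrier of nerve (log2 fold change -1.02, a DEG), the growth-cone protein Gap43 (-0.88), the sodium channel Scn7a (-0.66), the adhesion molecule L1cam (-0.55) and the artemin receptor Gfra3 (-0.50). L1cam and Gfra3 both lost the call without sham replicates 1 or 3 and with no filter on low expression, which left 3 lower genes. L1cam was also lost without BPVB replicates 2 or 3 or sham replicate 2 (adjusted p 0.0593 to 0.118 over these 5 libraries, with a log2 fold change of -0.35 without BPVB replicate 3) and with TPM (adjusted p = 0.0553), and Gfra3 without BPVB replicates 1 or 2 (0.0728 to 0.0902 over its 4 libraries). Ngfr, the low-affinity neurotrophin receptor of non-myelinating and repair cells, was higher (log2 fold change 0.48, adjusted p = 0.044, limma), but was not called under 8 of 16 alternatives, among them those without any one BPVB library or without sham replicates 2 or 3 (adjusted p 0.0603 to 0.127). Shh was counted with 18, 34 and 19 fragments after banding and with 1, 0 and 0 after sham surgery, and was at least 6.89-fold higher in the BPVB group, against a floor of 3 fragments per library. Shh is made by repair Schwann cells and by lung epithelium, whose markers were higher in the same libraries, and the source was not tested. With Shh at its bound the median of the list stays at -0.26, as it must, since Shh lies above the median either way.

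In neuregulin and ErbB signalling, 7 of 9 genes were tested, of which 4 were higher, 1 was lower and 2 did not pass, with a median of 0.25. The ligand Nrg1 rose from 0.942 ± 0.086 to 1.81 ± 0.21 FPKM (SD, n = 3; log2 fold change 0.68, adjusted p = 0.0034, limma). The adhesion receptor Adgrg6, needed for the onset of myelination (log2 fold change 0.51), and the protease Adam17, which cuts neuregulin (0.36), were higher as well. Erbb2, the partner of Erbb3, was at the threshold (log2 fold change 0.25, adjusted p = 0.046, limma), and its call was lost without any one of the 6 libraries (adjusted p 0.0582 to 0.145). Erbb4, the neuregulin receptor of heart muscle and neurons, was lower (log2 fold change -0.56).

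Genes of neurons and axons, the partners of Schwann cells, were all on one side among those that passed. Of 12 tested, 8 were lower, 0 were higher and 4 did not pass, with a median of -0.76, and 5 of the 8 were DEGs. The light neurofilament gene Nefl was 0.358 ± 0.15 FPKM in the BPVB group and 6.74 ± 0.63 in the sham group (SD, n = 3; log2 fold change -3.09, adjusted p = 1.2e-06, limma). On the scale of log2(FPKM + 0.5), Nefl was followed by the neuronal tubulin Tubb3 (log2 fold change -2.17) and the synaptic protein Snap25 (-1.64). Then came the medium neurofilament gene Nefm (-1.47) and Th, the key enzyme of noradrenaline synthesis (-1.27). In FPKM the order of these differed, with sham means 11.5 times the BPVB means for Nefm and for Th, 5.83 times for Tubb3 and 4.38 times for Snap25. Uchl1 (-0.80) and the peripheral filament gene Prph (-0.72) were lower as well. The RNA-binding protein gene Elavl4 was the eighth (log2 fold change -0.51, adjusted p = 0.041, limma), and lost its call without BPVB replicates 1, 2 or 3 or sham replicates 2 or 3 (adjusted p 0.0614 to 0.133), which left 7 lower genes. Few fragments lay behind the values of Nefm (14, 8 and 3), Th (4, 1 and 8) and Elavl4 (9, 4 and 0) in BPVB replicates 1 to 3. With BPVB means of 0.0817 and 0.0364 FPKM, Th and Elavl4 passed the filter on low expression only through the sham group. Stmn2 had a log2 fold change of -0.17 that did not pass (adjusted p = 0.21, limma). The summed level of the 12 genes was 19.8 to 24.4 FPKM in the BPVB group and 46.4 to 49.7 in the sham group. How far the levels of the Schwann cell genes followed those of the neuronal genes was not tested.

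Markers of oligodendrocytes, the central glia that share Mbp and Mag, were low but were not all below the level of Mag. Among them, Mobp had 16 to 102 fragments a library, with means of 0.301 and 0.416 FPKM in the BPVB and sham groups. Mag had 7 to 65 fragments and means of 0.199 and 0.836 FPKM, and the part of oligodendrocytes in its level was not tested. Of the 6 oligodendrocyte markers 3 passed the filter and 0 passed the test (limma, none also at an unadjusted p under 0.05), with a summed level of 0.475 to 0.825 FPKM in the BPVB group and 0.572 to 1.42 in the sham group. Markers of the labelled tissue were detected in all libraries. The summed level of 6 smooth muscle and endothelial markers of the vein wall was 4191.3 to 4246.8 FPKM in the BPVB group and 4602.3 to 4681.1 in the sham group (6 of 6 lower), that of 5 markers of the myocardial sleeve was 12108.1 to 12483.7 and 16480.6 to 16778.9 (4 lower, 1 higher), and that of 6 macrophage markers was 652.3 to 674.8 and 209.1 to 214.9 (6 of 6 higher). The lung epithelial markers, whose summed levels are given with Erbb3, were higher in 8 of 9. The part of these shifts in the values of the 8 genes was not tested.

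The genes nearest to 4 of the 8 genes in their profile over the 6 libraries were found among 12150 genes with a mean of at least 1 FPKM, by the Euclidean distance of log2(FPKM + 0.5) centred on each gene's mean. For Sox10 they were Tmem97 (distance 0.181), Cox7a2l2 (0.182) and Capn12 (0.235). For Mbp they were Eepd1 (0.123), Hhatl (0.123) and Fam107a (0.124), for Cdh19 Slco5a1 (0.0471), Pc (0.0602) and Mettl17 (0.0814), and for Prx Ncapd3 (0.0549), Btnl9 (0.0592) and Lipa (0.0597). The 8 genes themselves were left out of this search, so they could not appear. Listed genes with a mean under 1 FPKM, such as Drp2, Ncmap, Ugt8 and Fa2h, could not appear either. None of the listed Schwann cell and myelin genes that were searched was among those named, which does not show that their profiles differ.

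**Figure D4:**
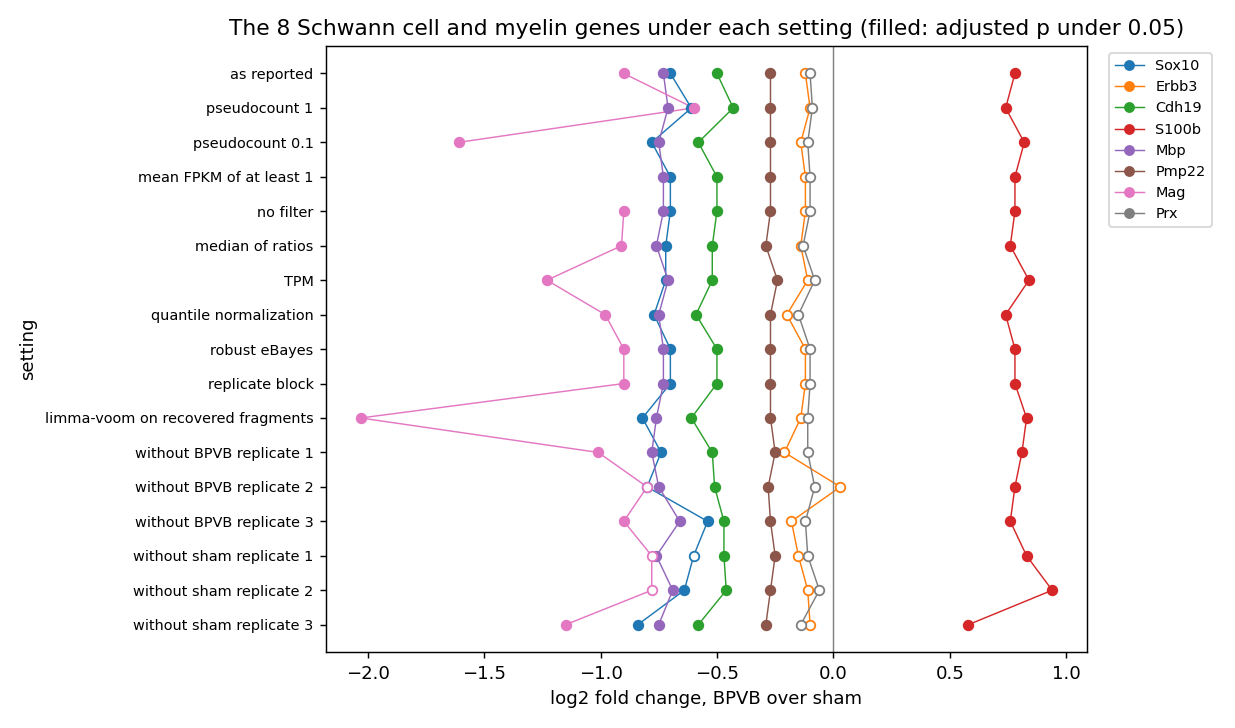
Log2 fold change, BPVB over sham, of the 8 genes (horizontal axis) as reported and under 16 alternatives (vertical axis), filled where the adjusted p was under 0.05. Mbp, Pmp22, Cdh19 and S100b stay filled on their side of 0 under every alternative, Sox10 is open without sham replicate 1, Mag is open without BPVB replicate 2 and without sham replicates 1 or 2 and has no point where the filter removed it, and Erbb3 and Prx are open throughout.

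Under the 16 alternatives, which the plot of fold changes by setting shows, Mbp lay between -0.78 and -0.66, Pmp22 between -0.29 and -0.24, Cdh19 between -0.61 and -0.43 and S100b between 0.58 and 0.94 on the log2 scale, each with an adjusted p under 0.05 in 16 of 16. Sox10 lay between -0.84 and -0.54 and passed in 15 of 16, and Mag passed in 12 of the 15 that tested it. Prx and Erbb3 passed in 0 of 16 (limma in each). In exact permutation tests on FPKM, two-sided, the 6 genes whose groups did not overlap each had p = 0.1, the smallest that 3 libraries against 3 allow. Prx had p = 0.2 and Erbb3 p = 0.7 in the same exact test.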

How the data were processed

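Bulk RNA-seq of 3 BPVB and 3 sham PVs was analysed. Groups and replicate numbers came from the sample labels. The values deposited by the authors are FPKM, 1 for each gene in each rat, beside NCBI Gene numbers and GO terms. Methods and labels differ on how these were made. The methods name fastp, HISAT, HTSeq-count and the VAHTS Universal V6 kit, whereas the submitters' processing notes name HISAT2 2.0.5, StringTie 1.3.3b and featureCounts 1.5.0-p3, and the protocol names the NEBNext Ultra kit. Both sources say that the authors used DESeq2, with version 1.20.0 in the notes. The genome build, annotation and strand setting are not given in the sources used here. 0 columns of per-sample values were unused.

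Fragments were recovered from whole-number ratios of each gene's FPKM between libraries (100.0% of genes came out whole within 0.01 fragments; in a simulation 99.6% of 2173 genes with at least 50 fragments were right). Recovered totals were 26686151, 26078189 and 29725808 (BPVB) and 23774306, 23439506 and 23821184 (sham), of which 99.78% lay on listed genes. For low genes, recovery gives the lowest number compatible with the FPKM. A floor of 3 fragments, for counting error only, stood in for a count of 0. Within groups, the libraries differed by more than sampling noise (chi-square per gene 4.63 to 6.54 over 6 pairs). The labels do not say that the rats come from separate litters, so p-values measure the spread between these samples.

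limma 3.58.1 in R 4.3.3 (lmFit, eBayes with trend, two-sided, Benjamini-Hochberg) was run on log2(FPKM + 0.5) of genes averaging at least 0.1 FPKM. Fold changes on this scale understate the change of low genes. In a simulation, 198 of 200 genes changed 4-fold and 0 unchanged genes were called, with an absolute log2 fold change above 1 also required. The changed genes averaged at least 1 FPKM, so the simulation does not cover the smaller changes of the 8 genes or the low level of Mag. DESeq2, a count tool, was not run here, since the deposited values are FPKM. DEGs passed the adjusted p of 0.05 with an absolute log2 fold change over 1. The 8 genes and the 13 other lists were chosen with earlier results of these data known. Some listed genes are not reported here and were left out of the list counts. Named genes are the 8, members of the lists and, for 4 of the 8, the 3 nearest profiles. The alternatives were pseudocounts of 1 and 0.1, 2 filters, 3 scalings, robust eBayes, the replicate block, limma-voom on recovered fragments and leaving out each library. RefSeq GRCr8 gave promoters for 6 of the 8 genes, of which 5 were searched for motifs. Other steps ran in Python 3.11.15 (pandas 2.3.3, numpy 2.4.6, matplotlib 3.10.9, scipy 1.17.1).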

Additional observations from a re-analysis of the deposited data

How the results depend on the processing

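Calls of Mbp, Pmp22, Cdh19 and S100b held under all 16 alternatives. Leaving out each library in turn gave log2 fold changes of -0.78 to -0.66 for Mbp, -0.84 to -0.54 for Sox10, 0.58 to 0.94 for S100b, -0.29 to -0.25 for Pmp22, -0.14 to -0.06 for Prx, -1.15 to -0.78 for Mag, -0.58 to -0.46 for Cdh19 and -0.21 to 0.03 for Erbb3, whose sign turned without BPVB replicate 2 (0.03). The calls lost were those of Sox10 without sham replicate 1 (-0.60) and of Mag without BPVB replicate 2 (-0.80), sham replicate 1 (-0.78) and sham replicate 2 (-0.78). Fewer samples enter those fits. The 5 lower genes became 3 without sham replicate 1, with counts from 3 to 5 over the libraries left out, with 1 higher gene each time. A mean of at least 1 FPKM removed Mag and left 4. Of the 8 genes, 1, Mag, passed the fold threshold with a pseudocount of 0.1, TPM, limma-voom, without BPVB replicate 1 and without sham replicate 3 (0 to 1 over the libraries left out).

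Over all tested genes, leaving out a library gave 2166 to 2232 higher, 1751 to 1905 lower and 497 to 532 DEGs, against 2605, 2170 and 496. DEGs numbered 325 with a pseudocount of 1, 901 with 0.1 and 1055 with limma-voom. In the 5 lists of Schwann, myelin, neuregulin and neuronal genes, the 24 lower and 9 higher genes became 19 to 21 and 6 to 7 when a library was left out. A mean of at least 1 FPKM, which leaves fewer genes tested, gave 3 lower myelin genes in place of 7 and 5 lower neuronal genes. Fabp4, with a log2 fold change near 0, turned sign with TPM (0.03), quantile normalization (0.13, called higher, adjusted p = 0.0011), and without BPVB replicate 1 (0.01) or sham replicate 3 (0.00), and lay between -0.02 and 0.01 over the libraries left out. Limma-voom on the 5 lists added calls of Nfasc, Ncam1 (adjusted p = 0.0172), Chl1 (0.00493), Tfap2a (0.0181) and Nefh (0.0462) and lost that of Sox2. Chl1 was also called with the median of ratios (0.0473), with quantile normalization (0.0211) and without BPVB replicate 2 (0.0425), and Tfap2a with no filter (0.0429). The cause was not tested for changes with scaling or with limma-voom.

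The replicate numbers were shared between groups, but libraries with the same number hardly deviated together (correlations 0.031, 0.025 and 0.019), although each correlated best with its own number. With the replicate block, 5 of the 8 genes were lower and 1 was higher, as without it, the adjusted p of Sox10 was 0.00294, and 2466 genes were higher and 2073 lower over all. Fa2h (adjusted p = 0.0525), Elavl4 (0.0716) and Erbb2 (0.0757) lost their calls in that fit. Of the 8 genes, Mag had the fewest fragments, 7 to 65 a library.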

Other observations

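The genes that the deposited table assigns to the GO term myelination were counted as well, a list chosen after values of some of its genes were seen. Of 60 such genes 55 were tested, and 18 were lower, 10 were higher and 27 did not pass, with a median log2 fold change of -0.11, beside 14.3% lower, 17.2% higher and a median of 0.02 over all tested genes. The other terms counted were Schwann cell development (2 lower and 0 higher of 11 tested, median 0.01), Schwann cell differentiation (2 lower and 3 higher of 11, median 0.05) and peripheral nervous system development (4 lower and 4 higher of 22, median 0.02). Of the 8 genes, Mbp and Pmp22 carry the term myelination, and Mbp, Prx and Mag carry the term myelin sheath.

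The spread between libraries of one group was uneven among the 8 genes. The variance of scaled fragments over their mean, which is 1 for independent fragments, was 0.61 for S100b in the BPVB group and 20.0 in the sham group. For Erbb3 it was 15.0 in the BPVB group and 0.8 in the sham group. With 3 libraries a group these values are themselves uncertain. Sham replicate 3 was the lowest of its group for 6 of the 8 genes, Sox10, Cdh19, S100b, Mag, Pmp22 and Prx.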
